A study of Mus musculus with 18 samples.

Results

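The genes of the LIF-STAT3 pathway described here are the receptor genes Lifr and Il6st, the kinase gene Jak1, the transcription factor gene Stat3, the feedback inhibitor gene Socs3, the target genes Pim1, Pim3 and Gbx2, and the phosphatase adaptor gene Ptpn11. They were chosen by name, with earlier results of these data known, as a set that links a cytokine to its transcriptional targets. All 9 were present in both count tables, which together list 14411 genes (13104 in ESCs, 13717 in EpiLCs and 12410 in both). RNA was sequenced from mouse embryonic stem cells (ESCs) and from the epiblast-like cells (EpiLCs) derived from them, in 12 libraries that form 4 groups of 3 biological replicates. The cells are the BVSC line, which carries the fluorescent reporters Blimp1::mVenus and Stella::ECFP, and the methods name 1 female and 1 male clone of it (H18 and R8). The paper states that its main proliferation data came from female ESCs, while the labels do not say which clone was sequenced. ESCs were grown in N2B27 with LIF and inhibitors of GSK3 and MEK (2i+LIF), and EpiLCs in a medium with activin A and bFGF that holds no LIF. Within each cell type, the exposed cultures received 100 nM Δ9-THC, the main psychoactive cannabinoid of cannabis, and the vehicle cultures received ethanol alone, and the exposed EpiLCs came from exposed ESCs. Libraries of PGCLCs were not analysed here.

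LIF binds a receptor made of LIFR and gp130, the product of Il6st, and the kinase JAK1 bound to this receptor phosphorylates STAT3, which then enters the nucleus. In mouse ESCs, active STAT3 drives a set of genes that help to keep the naive state, among them Socs3, whose product shuts the receptor down again, and the kinases of the Pim family. A side branch through SHP2, the product of Ptpn11, carries the signal to the RAS-MAPK and PI3K pathways, and its RAS-MAPK arm favours exit from the naive state. ESCs made to differentiate into EpiLCs leave LIF behind and pass from the naive towards the primed state of pluripotency.

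STAT proteins bind palindromes of the form TTCNNNGAA, in which N is any base. This motif reads the same on both strands, and the narrower form TTCCNGGAA is a part of it. Both were searched in the RefSeq promoter windows of the mouse genome (build GRCm38.p6), which run from 250 bases before to 50 bases after a transcript start. All 9 genes matched at least 1 window and had 11 in total. Only the window of Socs3 held TTCNNNGAA, once, and none of the 11 held TTCCNGGAA. Over all 32851 windows of the genome, 8.3% held TTCNNNGAA and 1.15% held TTCCNGGAA. The windows of Socs3, Stat3, Il6st and Lifr are printed because these genes had the largest differences in level between ESCs and EpiLCs among the 9, and that of Pim1 because it was the single member called with exposure, in ESCs. Capitals mark the match, whose first base lies 154 bases before the start site, and each window is written from 5′ to 3′ on the strand of its gene. The Socs3 window is chr11:117969317-117969616 on the minus strand, and that of Stat3 is chr11:100939491-100939790 on the minus strand. The Il6st window is chr13:112463820-112464119, the first of 2 Lifr windows is chr15:7129322-7129621 and the first of 2 Pim1 windows is chr17:29490535-29490834, all on the plus strand.
Socs3: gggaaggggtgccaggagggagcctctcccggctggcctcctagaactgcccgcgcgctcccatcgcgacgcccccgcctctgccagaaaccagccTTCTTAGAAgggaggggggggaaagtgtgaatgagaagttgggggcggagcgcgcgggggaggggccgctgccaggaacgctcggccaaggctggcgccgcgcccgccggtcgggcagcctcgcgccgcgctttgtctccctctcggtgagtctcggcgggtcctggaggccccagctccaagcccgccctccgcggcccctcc
Stat3: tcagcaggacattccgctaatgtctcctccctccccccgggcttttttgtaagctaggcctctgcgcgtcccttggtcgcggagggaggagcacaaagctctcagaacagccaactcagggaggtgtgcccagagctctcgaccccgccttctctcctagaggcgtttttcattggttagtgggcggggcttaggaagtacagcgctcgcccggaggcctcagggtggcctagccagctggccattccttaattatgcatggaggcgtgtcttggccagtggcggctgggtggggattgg
Il6st: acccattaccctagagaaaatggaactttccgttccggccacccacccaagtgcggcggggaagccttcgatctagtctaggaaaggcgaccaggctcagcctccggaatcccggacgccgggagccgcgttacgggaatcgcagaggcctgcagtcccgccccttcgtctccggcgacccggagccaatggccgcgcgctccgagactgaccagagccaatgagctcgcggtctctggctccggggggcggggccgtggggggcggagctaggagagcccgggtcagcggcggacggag
Lifr: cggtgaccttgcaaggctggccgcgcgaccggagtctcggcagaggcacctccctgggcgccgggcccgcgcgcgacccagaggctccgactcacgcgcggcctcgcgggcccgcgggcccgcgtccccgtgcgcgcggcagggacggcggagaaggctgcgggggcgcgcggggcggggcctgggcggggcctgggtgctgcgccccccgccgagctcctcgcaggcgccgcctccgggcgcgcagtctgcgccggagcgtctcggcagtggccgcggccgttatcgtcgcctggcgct
Pim1: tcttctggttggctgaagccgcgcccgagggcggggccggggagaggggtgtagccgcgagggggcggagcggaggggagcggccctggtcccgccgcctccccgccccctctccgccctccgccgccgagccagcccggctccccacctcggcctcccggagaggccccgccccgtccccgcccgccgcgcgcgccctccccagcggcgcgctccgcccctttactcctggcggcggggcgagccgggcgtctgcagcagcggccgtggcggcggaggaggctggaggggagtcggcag
The 5 windows are rich in G and C, with 60.7% in Stat3, 68.3% in Il6st, 73.3% in Socs3 and 81.3% in both Lifr and Pim1. A match describes the letters of the window and does not show that STAT3 binds there. In the GENCODE M21 annotation of GRCm38, the receptor genes are Lifr (chr15:7090614-7197489, plus strand) and Il6st (chr13:112464070-112510086, plus strand). Jak1 (chr4:101152367-101265282), Stat3 (chr11:100885098-100939540), Socs3 (chr11:117966079-117970047), Gbx2 (chr1:89927956-89931179) and Ptpn11 (chr5:121130533-121191397) lie on the minus strand, and Pim1 (chr17:29490753-29496112) and Pim3 (chr15:88862186-88865726) on the plus strand. Reads were counted over all exons of a gene, which sum to between 2177 bases (Gbx2) and 11099 bases (Il6st).

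The deposited values were counts that the authors had adjusted for batch effects, with 23427551 to 32096698 counts per library. Levels are given in CPM, the counts of a gene relative to the library total, with TMM scaling over the 12 libraries. Markers of the naive state and of EpiLCs separated the cell types as their labels say. The 8 naive markers listed had a summed level of 2899 to 3148 CPM in vehicle ESCs and of 309.8 to 335.1 CPM in vehicle EpiLCs, and the EpiLC markers had 156.4 to 168.6 CPM (5 of 6 in the ESC table) and 1704 to 2039 CPM (6 of 6). The summed levels of the markers of primitive endoderm, mesendoderm, neuroectoderm, trophoblast and fibroblasts were each at most 29.2 CPM in any library. Of these 18 markers, 10 were not listed in the ESC table and 9 were not listed in the EpiLC table. The highest sum, in vehicle EpiLCs, came from the trophoblast marker Krt8 alone. Of the 2 markers listed for both cell types, Pou5f1 was 1.01-fold and Sox2 4.09-fold lower in vehicle EpiLCs.

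In vehicle ESCs, the members were compared with each other per kb of exon, since long genes collect more reads. Pim1 had the highest level (47.0 ± 1.3 CPM per kb, SD, n = 3), followed by Pim3 (38.9 ± 1.7) and Socs3 (28.9 ± 0.62). These 3 genes code for kinases that promote survival and for the inhibitor of the receptor. The signalling genes were lower, with 15.3 ± 0.53 CPM per kb for Ptpn11, 14.0 ± 0.57 for Il6st, 13.7 ± 0.45 for Jak1 and 10.8 ± 0.37 for Stat3. Gbx2, a homeobox gene induced by STAT3, had 6.03 ± 0.29 and Lifr had 5.57 ± 0.40 CPM per kb. The libraries of Il6st and Jak1 overlapped, as did those of Gbx2 and Lifr, and all other neighbours in this order were separate. In vehicle EpiLCs, Pim1 (53.5 ± 4.8 CPM per kb), Pim3 (23.6 ± 1.8) and Ptpn11 (12.2 ± 1.5) came first, and Socs3 (2.67 ± 0.34), Il6st (2.41 ± 0.087), Stat3 (1.65 ± 0.051) and Lifr (0.908 ± 0.047) came last. Between them stood Gbx2 (7.23 ± 1.2 CPM per kb) and Jak1 (5.76 ± 0.52), whose libraries overlapped. Socs3 thus had rank 3 of 9 in vehicle ESCs and rank 6 in vehicle EpiLCs.

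The study used ESCs as naive and EpiLCs as primed pluripotent cells, and the level of each member was set side by side in the cell types. The receptor, kinase, transcription factor and feedback genes were all lower in EpiLCs, while the targets Pim1, Pim3 and Gbx2 and the adaptor gene Ptpn11 differed by less than 2-fold. A level was called lower or higher where the means of CPM differed by over 2-fold and the 3 libraries of each cell type did not overlap. By this rule, 5 of 9 members were lower in vehicle EpiLCs and 0 were higher, against 10.5% and 11.1% of the 12410 genes in both tables. In the exposed libraries, 4 were lower and 0 higher, against 9.3% and 11.5%. The median log2 ratio of EpiLC to ESC over the 9 members was -1.25 in vehicle libraries and -0.92 in exposed libraries, and over all genes it was 0.0024 and -0.0008. No test was made of these differences, since the authors adjusted the table of each cell type separately, and less RNA per cell cannot be told apart from fewer cells that express a gene.

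Lifr codes for the LIF-binding chain of the receptor. Its level in vehicle ESCs was 64.2, 60.3 and 55.6 CPM in replicates 1, 2 and 3, and in vehicle EpiLCs it was 9.19, 10.1 and 10.1 CPM. All vehicle EpiLC libraries were far below all ESC libraries, by 6.13-fold between the means. Il6st, which codes for the signalling chain gp130 shared by the cytokines of the IL-6 family, went from 157.9, 161.0 and 148.8 CPM in vehicle ESCs to 25.7, 27.4 and 27.2 CPM in vehicle EpiLCs. The means differed by 5.82-fold, and the libraries of both receptor chains were separate between the cell types.

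Jak1 codes for the main kinase on gp130. It stood at 97.1, 102.6 and 96.8 CPM in vehicle ESCs and at 40.3, 45.9 and 38.8 CPM in vehicle EpiLCs, a 2.37-fold difference that was the smallest of the 5 called. Stat3 had 107.2, 101.2 and 100.8 CPM in vehicle ESCs and 15.2, 16.1 and 16.0 CPM in vehicle EpiLCs. Its libraries were close together within each cell type, and the means differed by 6.54-fold.

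Socs3, the feedback inhibitor that STAT3 itself induces, differed the most of the 9 members. Its level was 85.1, 83.6 and 81.5 CPM in vehicle ESCs and 7.18, 7.15 and 8.84 CPM in vehicle EpiLCs, or 10.8-fold lower. Its log2 ratio of -3.43 was below that of all but 0.637% of the 12410 genes.

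Of the 3 target genes among the members, 0 were called lower or higher. Pim1, a kinase gene, had 159.5, 153.1 and 161.7 CPM in vehicle ESCs and 161.9, 183.8 and 193.7 CPM in vehicle EpiLCs. These libraries did not overlap, but the log2 ratio was 0.19. Pim3 had 98.5, 90.1 and 94.9 CPM against 52.7, 57.5 and 61.3 CPM, without overlap and 1.65-fold lower. Gbx2 had 12.6, 13.8 and 13.0 CPM in vehicle ESCs and 12.8, 18.0 and 16.4 CPM in vehicle EpiLCs, and these ranges overlapped. In Gbx2, 43.5% of the exonic bases are shared with the antisense gene D130058E05Rik, and in Pim1, 14.5% are shared with the antisense gene Gm26885. The authors counted reads without regard to strand, so the reads of such pairs cannot be told apart.

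Ptpn11, the gene of the phosphatase SHP2, had 110.9, 118.8 and 114.8 CPM in vehicle ESCs and 86.9, 104.6 and 83.8 CPM in vehicle EpiLCs. All EpiLC libraries were lower, by 1.25-fold between the means. In vehicle cells, the ESC and EpiLC ranges thus overlapped in Gbx2 alone, but those of Pim1 nearly met. The share of all genes with separate ranges at any fold was not computed. The separation is therefore given as a description and is no result about the members as a set.

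**Figure D1:**
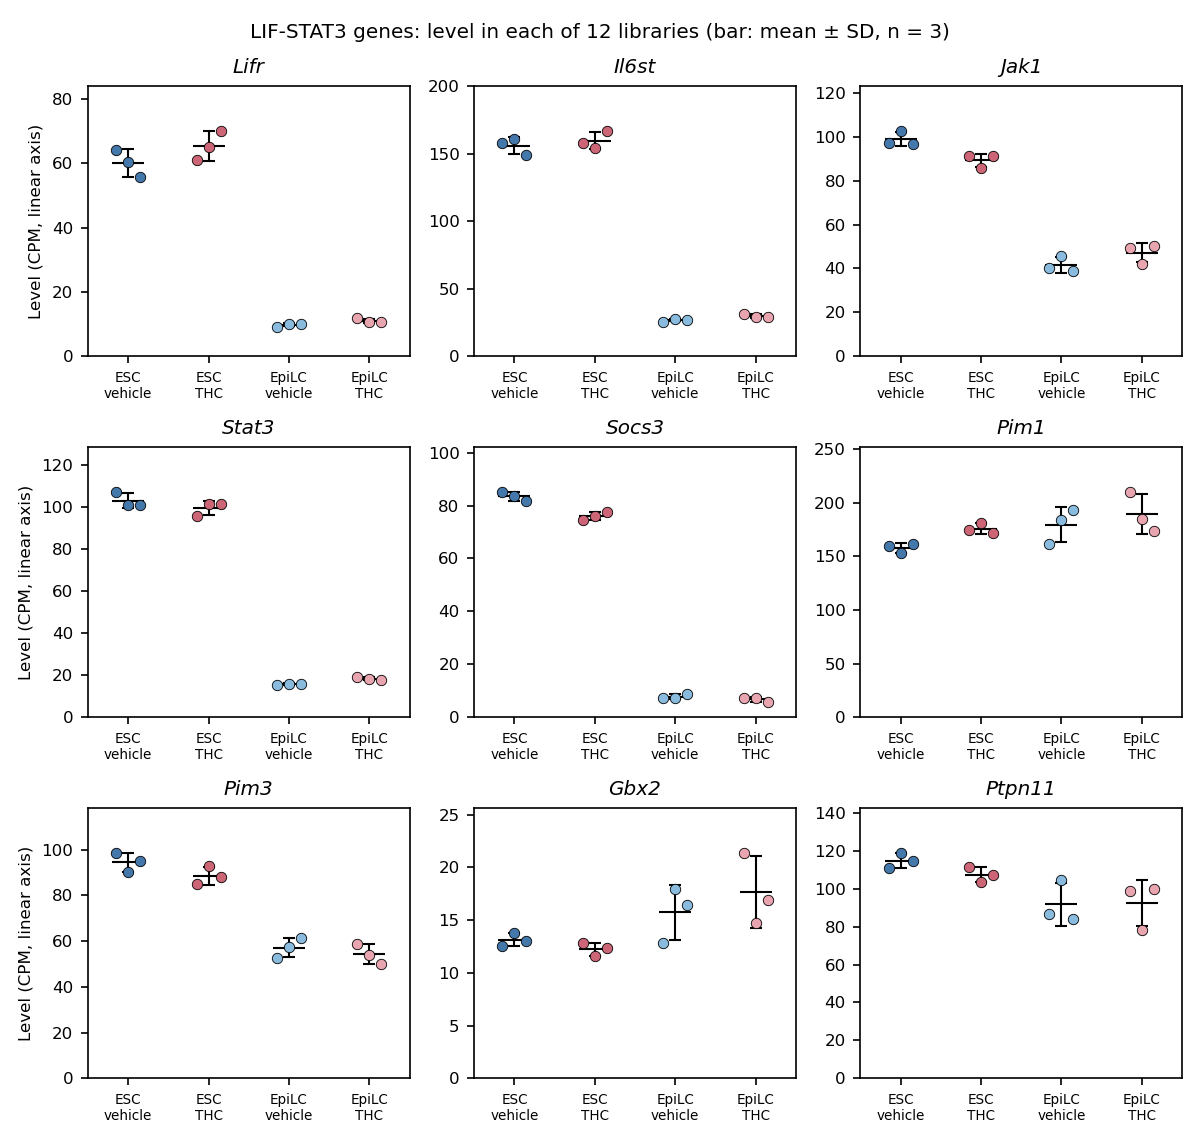
Level of the 9 genes in CPM on a linear axis from 0, with 1 point per library, 3 libraries per group, and bars for the mean ± SD. Lifr, Il6st, Jak1, Stat3 and Socs3 are lower in all EpiLC libraries, Socs3 with 5.82 to 8.84 CPM against 74.5 to 85.1 CPM in ESCs, whereas the groups of Pim1 lie between 153.1 and 210.1 CPM.

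In the exposed libraries, Lifr, Il6st, Jak1, Stat3 and Socs3 were again lower in all EpiLC libraries than in all ESC libraries. Exposed EpiLCs had 11.8, 10.8 and 10.7 CPM of Lifr, 31.2, 29.2 and 29.1 CPM of Il6st and 19.0, 18.1 and 17.9 CPM of Stat3, and the ratios to exposed ESCs were 5.9-fold, 5.35-fold and 5.43-fold lower. Socs3, with 7.34, 7.44 and 5.82 CPM, was 11.1-fold lower. Jak1 had 49.2, 42.3 and 50.1 CPM in exposed EpiLCs and 91.0, 86.0 and 91.2 CPM in exposed ESCs, and its ratio of 1.89-fold did not reach the 2-fold limit.

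Of 55 further genes of the pathway, listed by role, 44 were in both tables. In vehicle EpiLCs, 13 of these 44 were lower, 4 were higher and 27 were neither, against 10.5% lower and 11.1% higher of all genes. In exposed EpiLCs 9 were lower and 5 higher, against 9.3% and 11.5%, so that the number of higher genes was near its share of all genes in both. Their median log2 ratio was -0.44 in vehicle and -0.39 in exposed libraries. Among the 2 ligands measured in both tables, Lif itself had 7.08 CPM in vehicle ESCs and 5.66 CPM in vehicle EpiLCs, while Ctf1, the gene of the gp130 ligand cardiotrophin-1, was 2.16-fold higher. Of the other receptors, Il6ra, the gene of the IL-6 receptor chain, had 18.1 CPM in ESCs and 1.35 CPM in EpiLCs (13.4-fold lower), and Il11ra1 was 3.53-fold higher. Cntfr, the receptor chain for ciliary neurotrophic factor, was in the EpiLC table alone, at 22.2 CPM.

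All 3 other JAK kinases had negative log2 ratios, and Jak3 led them with 61.5 CPM in vehicle ESCs and 6.67 CPM in vehicle EpiLCs (9.22-fold lower). Jak2, which also serves gp130, was 2.38-fold lower, and Tyk2 was 1.8-fold lower and not called. Of the 6 other STAT genes 3 were lower, and Stat5a had the largest ratio (5.69 against 1.59 CPM, 3.58-fold). Among the 14 other inhibitors, which include the rest of the SOCS and PIAS families, only the phosphatase gene Ptpn6 was called (34.4 against 17.2 CPM), at the limit of 2-fold. Of the 8 measured genes of the SHP2 and PI3K branches, only Pik3r1 was called (2.18-fold lower). Over all genes in both tables, 10.5% were called lower and 11.1% higher in vehicle EpiLCs, and the median log2 ratio was 0.0024. The counts per role are small and were not tested against these shares. They are given as a description and are no result about a role.

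The other targets had the largest ratios of all roles, in both directions. Klf4, a naive factor that STAT3 induces, had 303.1 to 361.4 CPM in vehicle ESCs and 3.37 to 4.95 CPM in vehicle EpiLCs, or 78.6-fold lower. Tfcp2l1, another naive factor downstream of STAT3, had 1271 to 1290 CPM and 17.8 to 22.1 CPM (64.3-fold lower). Bcl3 was 23.3-fold lower and Klf5 was 9.92-fold lower. Opposite to these, Pim2 went from 16.5 to 19.8 CPM in vehicle ESCs to 453.5 to 625.2 CPM in vehicle EpiLCs, 30.3-fold higher, and Myc from 5.56 to 7.74 CPM to 56.2 to 66.4 CPM, 9.35-fold higher. The 3 PIM kinase genes therefore had log2 ratios of 0.19 (Pim1), 4.92 (Pim2) and -0.73 (Pim3).

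**Figure D2:**
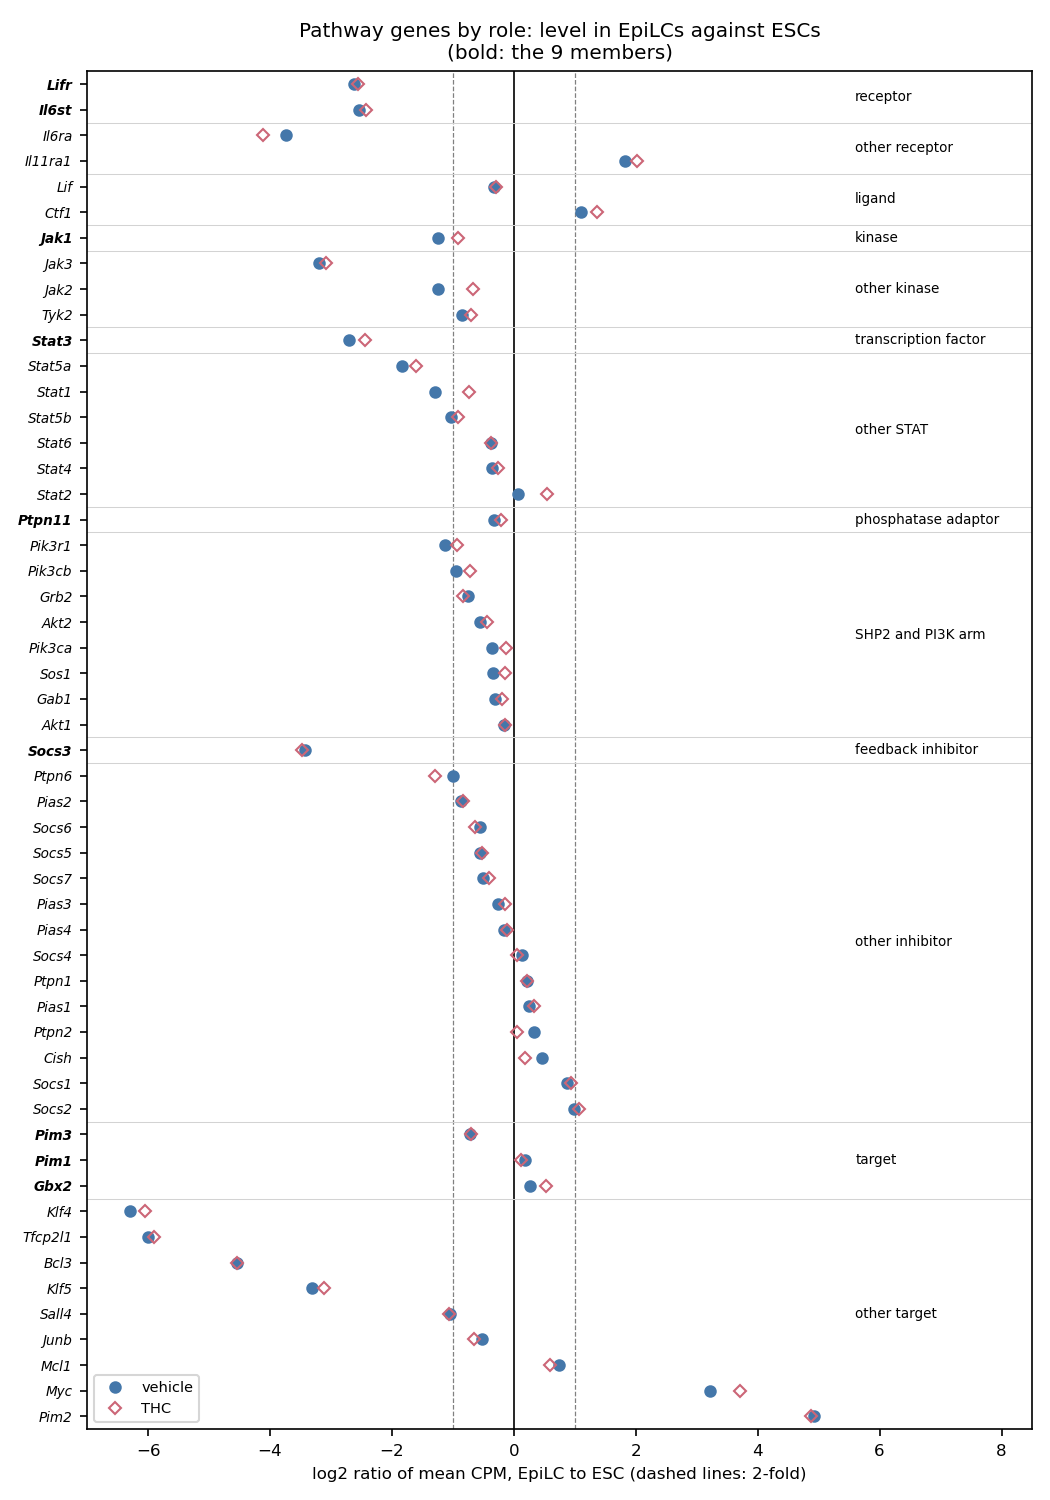
Log2 ratio of the mean CPM in EpiLCs to that in ESCs for the 9 members (bold) and 44 further pathway genes, by role, in vehicle libraries (filled circles) and exposed libraries (open diamonds), with dashed lines at 2-fold. Socs3 lies at -3.43 in vehicle libraries, Klf4 at -6.30 and Pim2 at 4.92, and most inhibitors lie within the dashed lines.

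The pattern of Socs3 over the 12 libraries was compared with that of 12409 other genes by Pearson's r of log2 CPM. The closest was Bcl3, the gene of an IkB-like protein and itself among the listed STAT3 targets (r = 0.9997), followed by Ckb, Ngfr, Gjb5 and Top3a (r = 0.9994 to 0.9989). These r values describe mainly the separation of the ESC from the EpiLC libraries, and 1682 genes had an r of over 0.95. Within the 6 ESC libraries the r with Socs3 was 0.97 for Bcl3, 0.86 for Ckb, 0.67 for Gjb5, 0.11 for Ngfr and -0.24 for Top3a. Among the members, Stat3 and Il6st (r = 0.994 in both) and Lifr (r = 0.993) were the most like Socs3, and Pim1 (r = -0.57) and Gbx2 (r = -0.74) the least.

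The study asked how exposure to Δ9-THC changes expression in each cell type. In ESCs, Pim1 was higher with exposure, and it was the single member to pass the threshold of 0.05 on the adjusted p-value (edgeR quasi-likelihood test, Benjamini-Hochberg adjustment over 13104 genes). This is 1 of 9 members, against 6.91% of all genes. The call was lost when replicate numbers entered the fit as a block, and in other alternatives given below. The level of Pim1 was 159.5, 153.1 and 161.7 CPM in vehicle ESCs and 174.3, 181.4 and 171.7 CPM in exposed ESCs. The groups did not overlap, and the log2 fold change was 0.17 ± 0.033 (SE, adjusted p = 0.0396 with edgeR). The 95% interval of the log2 fold change was 0.091 to 0.25.

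The other 8 members were not called in ESCs. The libraries of Socs3 and Jak1 did not overlap and were lower with exposure. Socs3 had 74.5, 75.9 and 77.7 CPM in exposed ESCs against 81.5 to 85.1 CPM in vehicle ESCs, with a log2 fold change of -0.12 ± 0.032 (SE, edgeR adjusted p = 0.0705). Jak1 had 86.0 to 91.2 CPM against 96.8 to 102.6 CPM, with a log2 fold change of -0.13 ± 0.039 (edgeR adjusted p = 0.0916). Without overlap, 1 member was thus higher and 2 were lower, against 14.2% and 18.8% of all genes.

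The receptor genes and Stat3 had overlapping libraries in ESCs. Lifr had 60.9, 65.1 and 70.0 CPM with exposure (log2 fold change of 0.14, 95% interval -0.031 to 0.31) and Il6st had 157.7, 154.6 and 166.9 CPM (0.051, interval -0.055 to 0.16). Stat3 had 95.7, 101.4 and 101.7 CPM (-0.034, interval -0.13 to 0.060). The adjusted p-values of these 3 with edgeR were 0.248, 0.49 and 0.613. Both other target genes and Ptpn11 also overlapped between the groups. With exposure, Pim3 had 85.0, 92.8 and 88.2 CPM, Gbx2 had 12.8, 11.6 and 12.3 CPM and Ptpn11 had 111.3, 103.7 and 107.4 CPM. Pim3, Gbx2 and Ptpn11 had log2 fold changes of -0.076, -0.085 and -0.080 (edgeR adjusted p = 0.333, 0.407 and 0.239). The median over the 9 members was -0.076, and over all genes 0.0041.

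The fold changes in ESCs moved with the GC content of the genes. Over 13083 genes, the log2 fold change had a Spearman rho of -0.545 with the GC content of the exons, a description across genes, which are not independent replicates. Among the 3271 genes with the lowest GC content (at most 45.5%) the median log2 fold change was 0.12, and among the 3271 with the highest (at least 54.7%) it was -0.11. Pim1 has a GC content of 54.4% and lies above this trend, while Socs3 (60.4%) and Pim3 (61.0%) are among the GC-rich genes, which were lower as a class. With offsets that take out how counts depend on GC content and length, the log2 fold change of Pim1 was 0.24 and its edgeR adjusted p 0.0741. Under the same offsets Socs3 had 0.044, Pim3 0.096 and Stat3 0.029, each of the opposite sign to the value above. Pim1 also lost its call in each of the 6 fits that left out a library (adjusted p = 0.0749 to 0.14), and over all alternatives its adjusted p ranged from 0.0228 to 0.92. The call was lost in 13 of 17 alternatives, while the log2 fold change stayed between 0.13 and 0.24.

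Of the further pathway genes, 48 were tested in ESCs, and 1 rose and 3 fell. These are 8.33% of the 48, near the 6.91% called among all genes. Il6ra rose from 18.6, 17.7 and 18.0 CPM to 20.1, 21.1 and 20.8 CPM (log2 fold change of 0.21 ± 0.042, edgeR adjusted p = 0.0414). Bcl3 fell from 70.6, 67.0 and 67.6 CPM to 57.7, 60.9 and 60.3 CPM (-0.18 ± 0.037, edgeR adjusted p = 0.042). Akt2, a kinase gene of the PI3K branch, fell from 89.7, 91.3 and 92.4 CPM to 82.9, 81.5 and 80.4 CPM (-0.14 ± 0.028, edgeR adjusted p = 0.0388). In all 3 the exposed and vehicle libraries were separate. Of the 48 genes, 8 were higher and 16 lower without overlap, against 14.2% and 18.8% of all genes. Pias3, named for its product that binds and inhibits STAT3, fell from 45.5, 42.7 and 45.1 CPM to 37.7, 40.1 and 38.0 CPM (-0.19 ± 0.042), with an edgeR adjusted p of 0.0498 just inside the threshold. These 4 calls were lost with the GC and length offsets (edgeR adjusted p = 0.0875, 0.613, 0.374 and 0.196 in the order given) and without any 1 of the 6 libraries. With the offsets the log2 fold changes were 0.25 (Il6ra), -0.041 (Bcl3), -0.050 (Akt2) and -0.10 (Pias3). Without 1 library they were 0.19 to 0.23, -0.20 to -0.16, -0.15 to -0.14 and -0.21 to -0.17, in the same order. The targets Tfcp2l1, Klf4, Klf5 and Myc were not called in ESCs. Tfcp2l1 had a log2 fold change of 0.11 (edgeR adjusted p = 0.0543), Klf4 of -0.20 (0.18), Klf5 of -0.020 (0.897) and Myc of -0.22 (0.444).

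In EpiLCs, no member passed the threshold, and neither did any of the 13717 genes with edgeR (0.0% called), although 2069 had an unadjusted p-value under 0.05 and DESeq2 called 87. The receptor chains and Stat3 were higher with exposure in every library. Stat3 had 15.2, 16.1 and 16.0 CPM with vehicle and 19.0, 18.1 and 17.9 CPM with exposure, with a log2 fold change of 0.22 (95% interval 0.062 to 0.38, edgeR adjusted p = 0.221). Lifr had 10.7 to 11.8 CPM against 9.19 to 10.1 CPM (0.18, interval -0.019 to 0.38), and Il6st had 29.1 to 31.2 CPM against 25.7 to 27.4 CPM (0.16, interval 0.0038 to 0.31). Their edgeR adjusted p-values were 0.369 and 0.323, and with the offsets for GC content and length their log2 fold changes were 0.064 and 0.051. Without overlap, 3 members were thus higher and 0 lower, against 11.2% and 10.6% of all genes.

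The other members overlapped between exposed and vehicle EpiLCs. With exposure, Pim1 had 210.1, 185.3 and 173.6 CPM, Pim3 had 58.8, 54.1 and 50.0 CPM and Gbx2 had 21.4, 14.7 and 16.9 CPM. Ptpn11 had 98.5, 78.3 and 100.1 CPM, and the SD of these 4 genes was larger than in exposed ESCs. Jak1 had a log2 fold change of 0.18, Gbx2 of 0.16, Pim1 of 0.076, Ptpn11 of 0.0085, Pim3 of -0.075 and Socs3 of -0.17, with edgeR adjusted p-values of 0.441 to 0.983. Socs3 had 5.82 to 7.44 CPM with exposure and 7.15 to 8.84 CPM with vehicle. The 95% interval of the log2 fold change of Socs3 ran from -0.50 to 0.16 and included 0. The median over the 9 members was 0.16, and over all genes 0.003.

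Of 46 further pathway genes tested in EpiLCs, 0 were called. Jak2 had the lowest p-value of them, and is named for that reason after its values were seen. It had 5.31, 6.02 and 5.75 CPM in vehicle EpiLCs and 9.18, 8.11 and 8.45 CPM in exposed EpiLCs, with a log2 fold change of 0.59 ± 0.095 (SE, edgeR adjusted p = 0.144). In ESCs the vehicle and exposed libraries of Jak2 overlapped (12.7 to 14.4 and 12.8 to 14.6 CPM). DESeq2 called Jak2 in EpiLCs (adjusted p = 0.0336), and over all alternatives its adjusted p ranged from 0.0135 to 1.0. Myc, at 56.2 to 66.4 CPM with vehicle and 68.9 to 82.4 CPM with exposure, had a log2 fold change of 0.25 (edgeR adjusted p = 0.309).

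**Figure D3:**
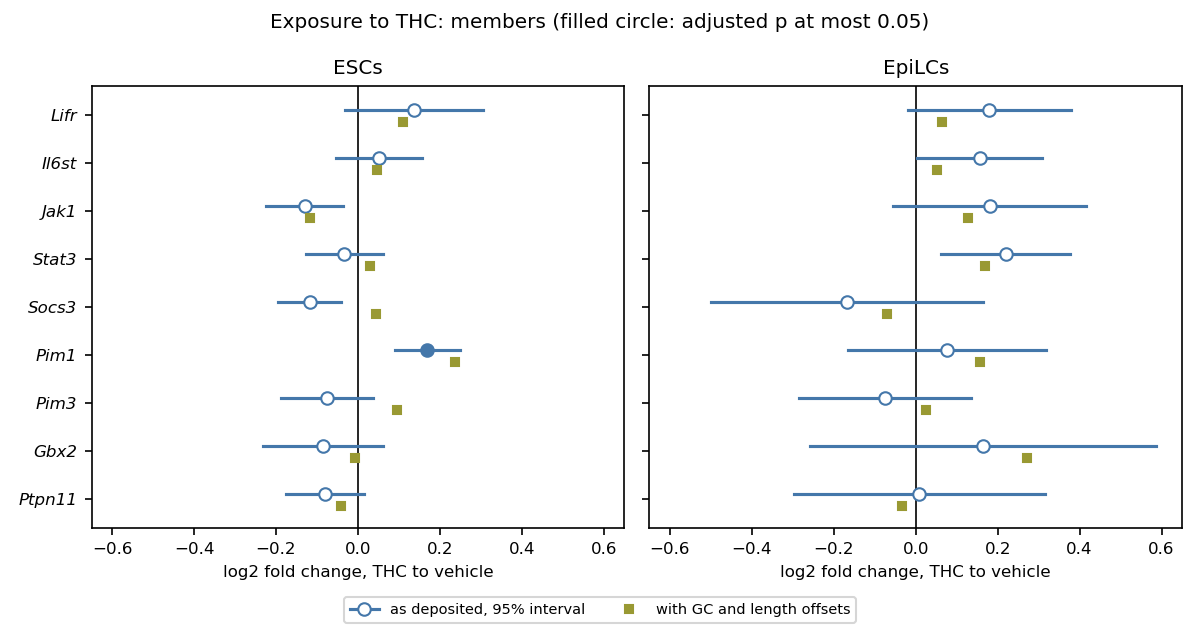
Log2 fold change of the 9 genes with Δ9-THC in ESCs (left) and EpiLCs (right), with 95% intervals from edgeR (circles, filled where the adjusted p-value passes 0.05) and the value after offsets for GC content and gene length (squares). In ESCs only Pim1 is filled, at 0.17, and Socs3 moves from -0.12 to 0.044 with the offsets.

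The effect of exposure was compared between the cell types by an interaction test over 12 libraries. No member passed the threshold of 0.05 on the adjusted p-value, and of 12410 genes 4 did (0.0322%). Stat3 had a difference of log2 fold changes, EpiLC minus ESC, of 0.27 ± 0.077 (SE, edgeR adjusted p = 0.153) and Jak1 of 0.32 ± 0.11 (edgeR adjusted p = 0.22). Those were the lowest adjusted p-values of the members, and the fold changes of Jak1 were -0.13 in ESCs and 0.18 in EpiLCs. For Socs3 the difference was -0.032 (95% interval -0.32 to 0.26). None of the 44 further genes passed, and Jak2 came closest, with a difference of 0.58 ± 0.12 (edgeR adjusted p = 0.0803).

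**Figure D4:**
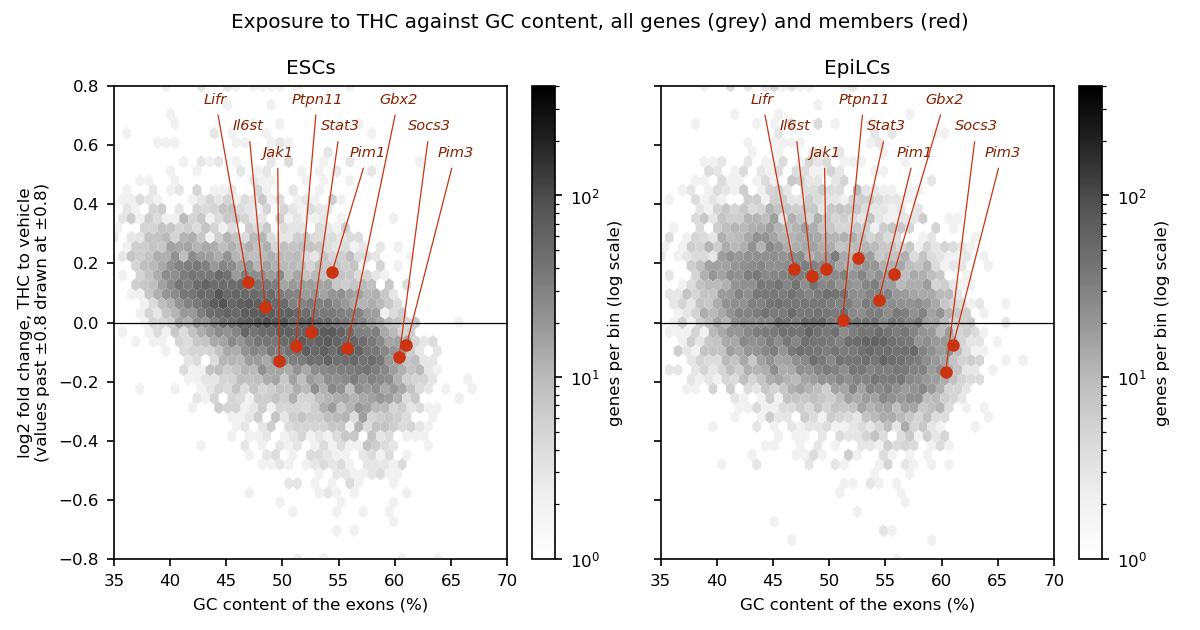
Log2 fold change with Δ9-THC against the GC content of the exons (%) in ESCs and EpiLCs, for all genes (grey bins, darker with more genes on a log scale) and the 9 members (red). The bins slope downwards, with a Spearman rho of -0.545 in ESCs and -0.31 in EpiLCs, and Pim1 lies above them at 54.4% GC in ESCs.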

How the data were processed

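RNA was measured in 12 libraries of ESCs and EpiLCs, 3 per cell type and exposure. The authors used 2 kits for poly(A) libraries (which kit made which library is not given in the sources used here), aligned reads with STAR, counted uniquely mapped reads per gene with HTSeq without strand, removed genes with low counts and applied ComBat-seq, for batches that are not named. The deposited tables hold the resulting adjusted counts, 1 table per cell type. Per the labels, demultiplexing used bcl2fastq 2.19.1.403. All 12 columns were matched by label and 0 were left over. The authors name the genome both mm10 and GRCm39. Positions here (GENCODE M21, GRCm38) therefore only describe the genes, and a GC content was found for 13083 of 13104 ESC genes and 13696 of 13717 EpiLC genes. Promoter windows came from RefSeq.

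Exposure was tested in each cell type by the quasi-likelihood test of edgeR 4.0.16 (TMM, R 4.3.3) on genes with more than 10 counts in total, with Benjamini-Hochberg adjustment over all genes and a threshold of 0.05, and the difference between cell types by an interaction over 12 libraries. Standard errors were derived from the F statistic. The p-values rest on the spread between replicates in the adjusted counts. Adjusted libraries with a shared replicate number deviate in opposite directions, which the test does not take into account, so these p-values are probably too small. The fits were tested on simulated counts drawn independently for each library, which lack the opposite deviations and the GC trend of the real data. The members had 173 to 5837 counts per library.

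The 9 members, the pathway lists and the markers were chosen with earlier results of these data known. The text names the 9 members, pathway genes called with exposure, the genes with the largest EpiLC to ESC ratio in each role, Klf4, Klf5, Tfcp2l1 and Myc, the 5 genes most like Socs3, and others that make up a small count. Alternatives were RLE, no filter, a minimum of 10 counts per library, a replicate block, GC and length offsets (natural splines, 5 degrees of freedom), block and offsets together, DESeq2 1.42.0, 1 fit of 12 libraries, each library left out, and for levels RLE, total counts and limits of 1.5-fold and 4-fold. A fit without both libraries of a replicate number was chosen after seeing the data. Python 3.11.15, pandas 2.3.3 and matplotlib 3.10.9 made the tables and figures.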

Additional observations from a re-analysis of the deposited data

How the results depend on the processing

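For the member levels, 5 of 9 genes were called lower in vehicle EpiLCs, and this number was the same under RLE, total counts and each library left out, with 6 at a limit of 1.5-fold and 4 at 4-fold. Of 906 calls with exposure in ESCs, GC and length offsets gave 2, 1 fit of 12 libraries 31, and leaving out 1 library 0 to 1 (without replicate number 1, 2 or 3, 1757, 0 and 0). In EpiLCs, 0 calls became 87 with DESeq2 and 411 in 1 fit of 12 libraries. The 4 interaction calls became 20 with offsets, 133 with DESeq2 and 0 without any 1 library. The cause was not tested. The groups share replicate numbers, and same-numbered libraries deviated in opposite directions (r = -0.987 to -0.977 in ESCs and -0.985 to -0.979 in EpiLCs, against 0.223 to 0.695 for other numbers). Differences between exposed and vehicle libraries thus vary more than a fit without the block assumes, and its p-values are probably too small. The replicate block gave 5 calls in ESCs and 0 in the interaction (3 and 0 with offsets), and an edgeR adjusted p of 0.42 for Pim1 in ESCs.

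With offsets, the log2 fold changes in ESCs turned to 0.029 (Stat3), 0.044 (Socs3) and 0.096 (Pim3), in EpiLCs to 0.024 (Pim3) and -0.034 (Ptpn11), and in the interaction to -0.030 (Lifr) and -0.052 (Pim3). The replicate block with offsets gave, in that order, 0.029, 0.044, 0.096, 0.0245, -0.035, -0.031 and -0.052. Without a library or a replicate number, signs turned for Stat3 (-0.072 to 0.024) and Il6st (-0.022 to 0.10) in ESCs, and for Ptpn11 (-0.12 to 0.21), Pim1 (-0.075 to 0.19), Gbx2 (-0.12 to 0.38), Pim3 (-0.19 to 0.034) and Socs3 (-0.29 to 0.044) in EpiLCs. In the interaction they turned for Pim3 (-0.044 to 0.076) and Socs3 (-0.093 to 0.082). By Spearman's rho, 0 of the 5 genes most like Socs3 were among the first 5. How far depth limits the members was not tested.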
